A study of Homo sapiens with 68 samples.

Results

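The 43 genes described here encode the machinery of DNA replication, and their mRNA was followed in Ewing sarcoma cells exposed to cytarabine, doxorubicin or puromycin. They were chosen by name and role from textbook biology of replication, with earlier results of these data known. Each was read from its brightest probe set, the one with the highest mean signal over all arrays. All 43 had a probe set, out of 11882 genes that the arrays measured, and 15 of them had more than 1. The cells were A673, an established Ewing sarcoma line that carries the EWS/FLI fusion, and all arrays came from this single line. Cytarabine (ARA-C) was given at 0.17 or 0.34 µM, doxorubicin at 59.88 or 119.76 nM and puromycin at 0.09 or 0.18 µM, the lower dose of each being its EC50 for viability and the higher dose 2 times that, and vehicle-treated cells received DMSO. RNA was taken after 24 hours, 3 days or 5 days. The vehicle groups held 6, 5 and 6 arrays at these times, and the treated groups 3 each, except doxorubicin at 119.76 nM for 5 days with 2, puromycin at 0.09 µM for 5 days with 2 used of 3, and puromycin at 0.18 µM for 5 days with 1. The labels number the replicates without tying a number to a culture or day across groups, so the p-values below measure the spread between these arrays.

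Replication begins when the origin recognition complex, CDC6 and CDT1 load the MCM2 to MCM7 helicase onto DNA. Kinases, CDC45 and the GINS complex then activate the helicase, and polymerases with a sliding clamp copy both strands. The transcripts of many of these genes rise as cells enter S phase, under the control of E2F factors. Cytarabine is a cytidine analogue that is built into DNA and halts its synthesis, doxorubicin intercalates into DNA and poisons topoisomerase II, and puromycin ends the synthesis of proteins. The arrays measured RNA in bulk, so fewer cells of a type, such as cells in S phase, and less RNA per cell cannot be told apart.

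Promoters of the members are shown because many members moved together. The sequences and gene starts are those of RefSeq on GRCh38.p14, in windows from 250 bases before to 50 bases after a start. A script searched both strands for TTTCCCGC, TTTGGCGC, TTTCGCGC and TTTGCCGC, which are forms of the E2F motif that do not contain each other but can overlap. At least 1 of these words was in 21 of the 52 windows of the members (40.4%), and in 1164 of all 35116 windows (3.31%). TTTCCCGC alone was in 10 of the members' windows and TTTGGCGC in 9, against 1.63% and 0.652% of all windows. By gene, 21 of the 38 members with a window held one (55.3%), and no window was at hand for MCM4, MCM5, POLD3, RPA2 and RPA3. The 180 bases around the start are given for 5 members whose signals are described further on, 3 that fell under doxorubicin at 3 days (POLA1, POLE2 and PCNA) and 2 that did not pass the test there (CDC6 and MCM2). Each runs 5′ to 3′ on the strand of its gene, and capitals mark the matches. In MCM2 the capitals hold 2 overlapping matches, 1 on each strand. All 5 promoters shown hold a word. Under doxorubicin at 59.88 nM for 3 days, 12 of the 21 members with a word fell. So did 6 of the 17 with a window and no word, CHAF1B and PRIM1 among them.
POLA1, chrX:24693768-24693947, plus strand: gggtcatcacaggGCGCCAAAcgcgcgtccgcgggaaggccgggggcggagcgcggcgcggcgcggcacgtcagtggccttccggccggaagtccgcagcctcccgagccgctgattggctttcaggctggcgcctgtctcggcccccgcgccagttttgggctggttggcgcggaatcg
POLE2, chr14:49688185-49688364, minus strand: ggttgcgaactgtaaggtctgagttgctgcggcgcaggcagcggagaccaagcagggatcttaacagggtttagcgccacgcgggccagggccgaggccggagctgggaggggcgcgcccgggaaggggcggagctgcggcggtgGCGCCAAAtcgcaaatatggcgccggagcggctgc
PCNA, chr20:5126593-5126772, minus strand: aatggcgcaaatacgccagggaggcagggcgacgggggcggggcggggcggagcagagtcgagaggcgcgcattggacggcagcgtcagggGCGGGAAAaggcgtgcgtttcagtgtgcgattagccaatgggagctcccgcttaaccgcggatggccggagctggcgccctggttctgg
CDC6, chr17:40287729-40287908, plus strand: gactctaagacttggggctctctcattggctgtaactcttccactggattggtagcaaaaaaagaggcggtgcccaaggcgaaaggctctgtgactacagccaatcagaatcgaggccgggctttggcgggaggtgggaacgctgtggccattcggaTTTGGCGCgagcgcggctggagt
MCM2, chr3:127598261-127598440, plus strand: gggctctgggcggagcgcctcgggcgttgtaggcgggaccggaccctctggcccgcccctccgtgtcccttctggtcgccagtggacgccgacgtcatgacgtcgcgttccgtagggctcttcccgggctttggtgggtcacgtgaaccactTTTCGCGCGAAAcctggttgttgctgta
The words stand at different distances from the start in the 5 promoters, upstream in POLA1 and PCNA and around the start in the other 3. A match describes the letters of a window and is not a measured binding site.

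The members were read from bright probe sets, with mean signals from 393 to 12640 and a median at percentile 88.2 of the tested probe sets. Pairs of arrays in the same group correlated between 0.920 and 0.987. All 7 Ewing sarcoma markers with a probe set were examined, and CD99, the surface antigen used to diagnose the tumour, read 9912 to 13607 on the vehicle arrays and at least 6792 on all arrays kept. Others of these markers ranged further, NKX2-2, a transcription factor, from 4597 to 9661 on the vehicle arrays and down to 1379 on treated ones, NPY1R, a receptor of neuropeptide Y, from 8039 to 13577 and down to 1839, and PRKCB, a protein kinase, from 3542 to 9109 and down to 765. The keratins KRT8 and KRT18 were also well expressed in vehicle-treated cells, at 1594 to 3058 and 8109 to 12716. The other 6 epithelial markers did not exceed 65.9 on any array kept. The third array of puromycin at 0.09 µM for 5 days was left out by the rule that set the members. On it 10 of 12 blood cell markers lay above every vehicle array, among them HBB, a chain of haemoglobin, at 30546 against 4.39 to 106. On the arrays that were kept, the summed signal of these markers was at most 709. The arrays had been processed on 1 plate, with vehicle replicates 1 to 3 in its rows A to F and 4 to 6 in rows G and H, and all arrays of cytarabine at 0.34 µM and of puromycin at 0.18 µM for 5 days were also in rows G and H.

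**Figure D1:**
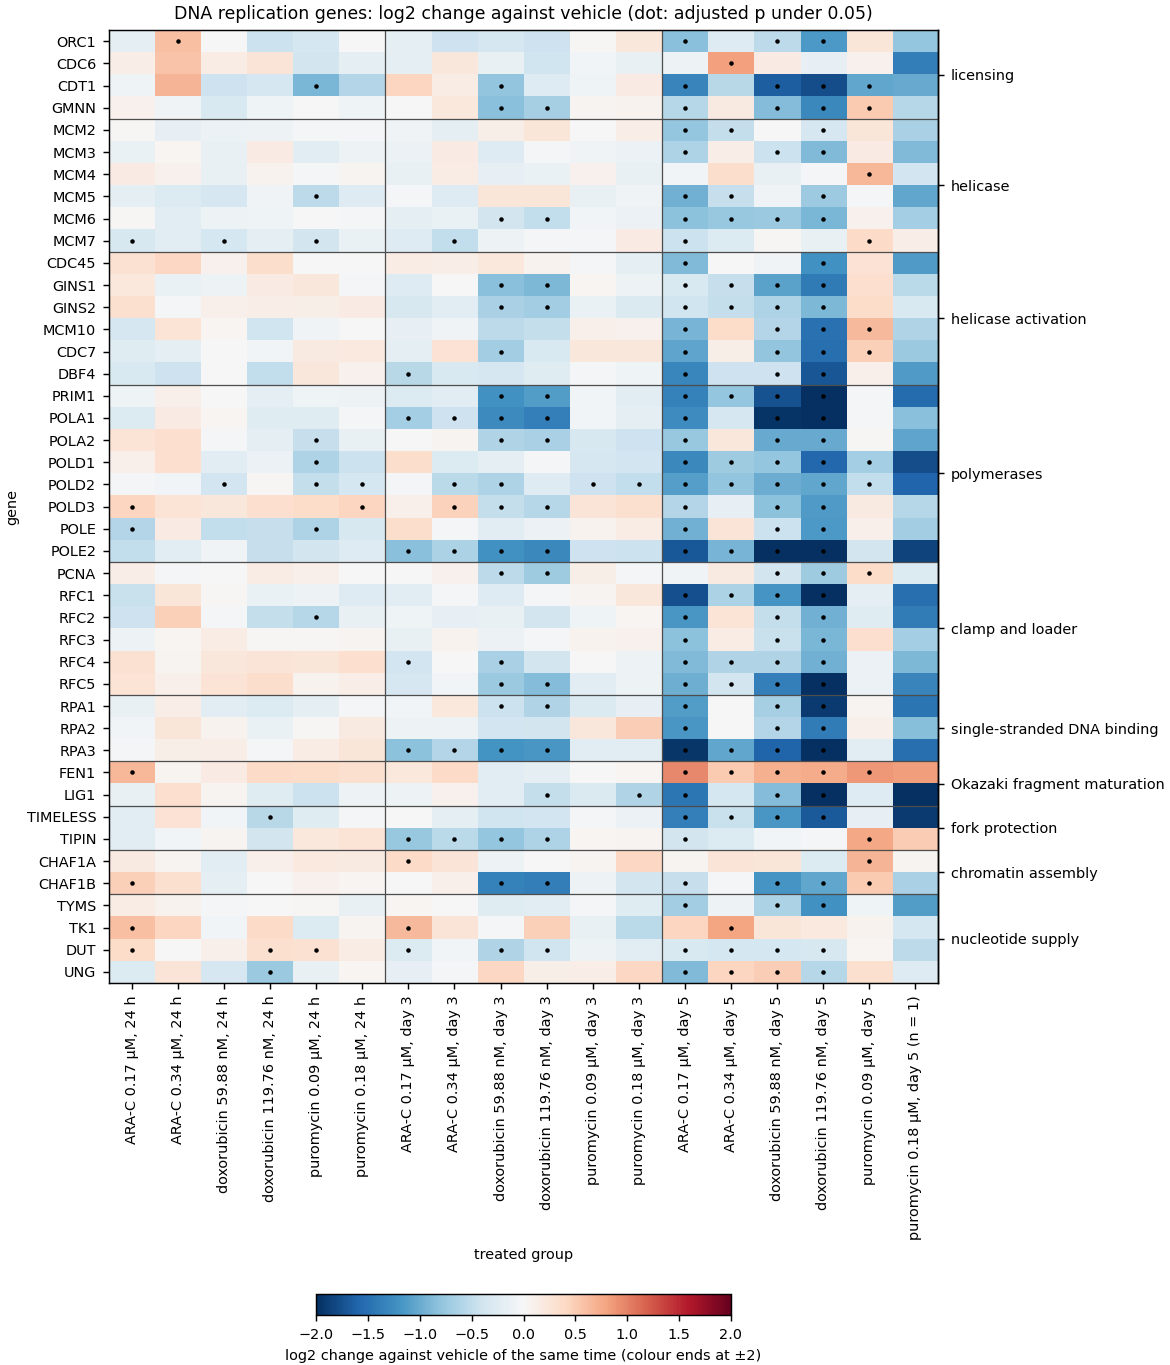
Heat map of the log2 change of the 43 replication genes (rows, ordered by role) in the 18 treated groups (columns), each against the vehicle arrays of the same time. Blue is lower and red higher, the colours end at 2 in each direction, and a dot marks an adjusted p under 0.05. Blue is concentrated in the doxorubicin columns from 3 days and in most columns at 5 days, and FEN1 is red at 5 days. The single array of puromycin at 0.18 µM for 5 days has no test.

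Under doxorubicin 2 and 3 of the replication genes passed the test at 24 hours, whereas many fell at 3 days. At 3 days and 59.88 nM, 20 of the 43 members fell and none rose, with a median log2 change of -0.38 and 39 members below 0. Over all 22215 probe sets, 11.1% were called lower and 9.03% higher in this comparison, with a median close to 0. At 119.76 nM, 17 fell and none rose, with a median of -0.37, against 11.1% of all probe sets called lower and 11.5% higher. A member or probe set is called when limma's Benjamini-Hochberg adjusted p over all probe sets is under 0.05. At an unadjusted p under 0.05 the members counted 26 lower and 1 higher at the lower dose, and 24 lower and 2 higher at the higher dose. By array, the median over the members lay between -0.44 and -0.33 at 59.88 nM and between -0.46 and -0.29 at 119.76 nM, while the vehicle arrays lay between -0.07 and 0.06.

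Of the role groups with at least 4 genes, the polymerases had the highest share of calls. At 59.88 nM, 6 of the 8 genes of DNA polymerases and primase were lower, with a group median of -0.61, and at 119.76 nM 5 of 8 were lower with the same median of -0.61. POLA1, the catalytic subunit of the polymerase that starts each new strand, read 2649, 2353, 2329, 2475 and 2658 on the vehicle arrays at 3 days. Under doxorubicin its signals were 1020, 1134 and 940 at 59.88 nM and 1035, 960 and 898 at 119.76 nM. Every doxorubicin array was thus below every vehicle array by a wide margin. The change of POLA1 was -1.28 ± 0.14 (SE) at the lower dose (limma, adjusted p = 3.35e-10) and -1.37 ± 0.14 at the higher (adjusted p = 3.23e-11). PRIM1, the primase that lays down the RNA primer, read 2479 to 2913 in vehicle, 1123 to 1195 at 59.88 nM and 1129 to 1323 at 119.76 nM. It fell by 1.20 and 1.12 on the log2 scale. POLE2, a subunit of the leading-strand polymerase, read 1860, 1516, 1844, 2077 and 1998 in vehicle, 678, 1014 and 751 at 59.88 nM and 818, 749 and 717 at 119.76 nM. Its 3 lower-dose arrays were less alike than those of POLA1, yet none reached the lowest vehicle array. POLA2, the accessory subunit of the POLA1 polymerase, fell by 0.60 and 0.65. POLD3, an accessory subunit of the lagging-strand polymerase, fell by 0.47 and 0.57. POLD2, a second subunit of that polymerase, fell by 0.62 at 59.88 nM, whereas POLD1, its catalytic subunit, and POLE, the catalytic subunit of the leading-strand polymerase, passed the test at neither dose.

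Chromatin assembly, clamp and single-strand binding genes included further large falls. CHAF1B, a subunit of the complex that places histones on new DNA, had the largest change of all members under doxorubicin at 3 days. Its signals were 993, 1064, 951, 801 and 956 in vehicle, 383, 356 and 374 at 59.88 nM and 365, 354 and 370 at 119.76 nM. It fell by 1.35 ± 0.17 (adjusted p = 8.59e-09) and by 1.39 ± 0.17 (adjusted p = 4.19e-09). CHAF1A, the large subunit of the same complex, was not called at either dose on its brightest probe set, although its second probe set was, at -0.39 and -0.47. RPA3, the smallest subunit of the protein that coats single-stranded DNA, read 3777, 3902, 3947, 4567 and 4770 in vehicle, 1967, 1951 and 1560 at 59.88 nM and 1998, 1844 and 1759 at 119.76 nM. RPA1, the large subunit, fell by 0.43 and 0.60, and RPA2 was not called. PCNA, the sliding clamp itself, read 7045, 7757, 7794, 7880 and 7327 in vehicle, 5337, 5067 and 5319 at 59.88 nM and 4662, 4776 and 4473 at 119.76 nM. Its change was modest in size, -0.53 ± 0.11 (adjusted p = 0.000271) and -0.70 ± 0.11 (adjusted p = 1.76e-06), but no doxorubicin array came near the vehicle range. Of the loader that puts the clamp on DNA, RFC5 fell by 0.75 and 0.87 and RFC4 by 0.64 at the lower dose, while RFC1, RFC2 and RFC3 were not called.

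Among the licensing genes, GMNN, which encodes geminin, the inhibitor of CDT1, was lower at both doses. Its vehicle signals were 6237, 6510, 5442, 5600 and 5532, against 3374, 3139 and 3338 at 59.88 nM and 4525, 3063 and 3574 at 119.76 nM. One array of the higher dose was above the rest, but it too was below all vehicle arrays. GMNN fell by 0.83 ± 0.16 (adjusted p = 3.84e-05) and 0.67 ± 0.16 (adjusted p = 0.000759). CDT1, which loads the helicase, fell by 0.79 ± 0.27 at 59.88 nM (adjusted p = 0.0266), with a change of -0.26 that did not pass at 119.76 nM. CDC6, its loading partner, read 2291, 2232, 2037, 2477 and 2978 in vehicle, 2421, 2171 and 1864 at 59.88 nM and 2558, 1376 and 1678 at 119.76 nM, so that the groups overlapped. ORC1, the largest subunit of the origin recognition complex, was not called at either dose.

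Of the role groups with at least 6 genes, the helicase had the lowest share of calls. Of its subunits, only MCM6 fell at each dose, by 0.36 ± 0.11 (adjusted p = 0.00948) and 0.49 ± 0.11 (adjusted p = 0.000333), and the group medians were -0.13 and -0.03. MCM6 read 7265, 7075, 7367, 7900 and 8294 in vehicle, 6066, 6038 and 5565 at 59.88 nM and 6201, 4953 and 5102 at 119.76 nM. MCM2 read 6207, 5989, 6008, 5568 and 5896 in vehicle, 6189, 6352 and 6818 at 59.88 nM and 6984, 6987 and 7022 at 119.76 nM. The arrays of the higher dose thus all lay above vehicle, although the change of 0.24 did not pass the test (adjusted p = 0.0878). MCM5 had changes of 0.24 (adjusted p = 0.228) and 0.25 (adjusted p = 0.202), and MCM3, MCM4 and MCM7 were not called at either dose. The difference between the helicase group and the polymerase group was not tested.

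Of the factors that activate the helicase, GINS1 and GINS2, both subunits of the GINS complex, fell at both doses, by 0.84 and 0.90 and by 0.65 and 0.70. CDC7, the catalytic subunit of the kinase that fires origins, fell by 0.70 at the lower dose. Its partner DBF4, CDC45 and MCM10, which joins the helicase as it is activated, were not called, MCM10 with -0.52 (adjusted p = 0.0631) at the lower dose. TIPIN, of the pair that guards a stalled fork, fell by 0.78 and 0.61, and its partner TIMELESS had -0.39 at the lower dose (adjusted p = 0.0524). LIG1, which joins Okazaki fragments, fell by 0.47 at the higher dose, and FEN1, which trims them, was not called on its brightest probe set. DUT, which removes dUTP from the nucleotide pool, fell by 0.61 and 0.40. TYMS, the enzyme that makes thymidylate, read 12404, 13419, 14551, 13731 and 13271 in vehicle, 12246, 10734 and 11283 at 59.88 nM and 11003, 11678 and 12432 at 119.76 nM. The arrays of the lower dose lay just below all vehicle arrays, 1 of the higher dose overlapped, and its change did not pass at either dose (-0.24, adjusted p = 0.0701, at 59.88 nM). TK1, thymidine kinase, had 0.48 at 119.76 nM (adjusted p = 0.0771), and UNG, which cuts uracil out of DNA, 0.42 at 59.88 nM (adjusted p = 0.0588).

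**Figure D2:**
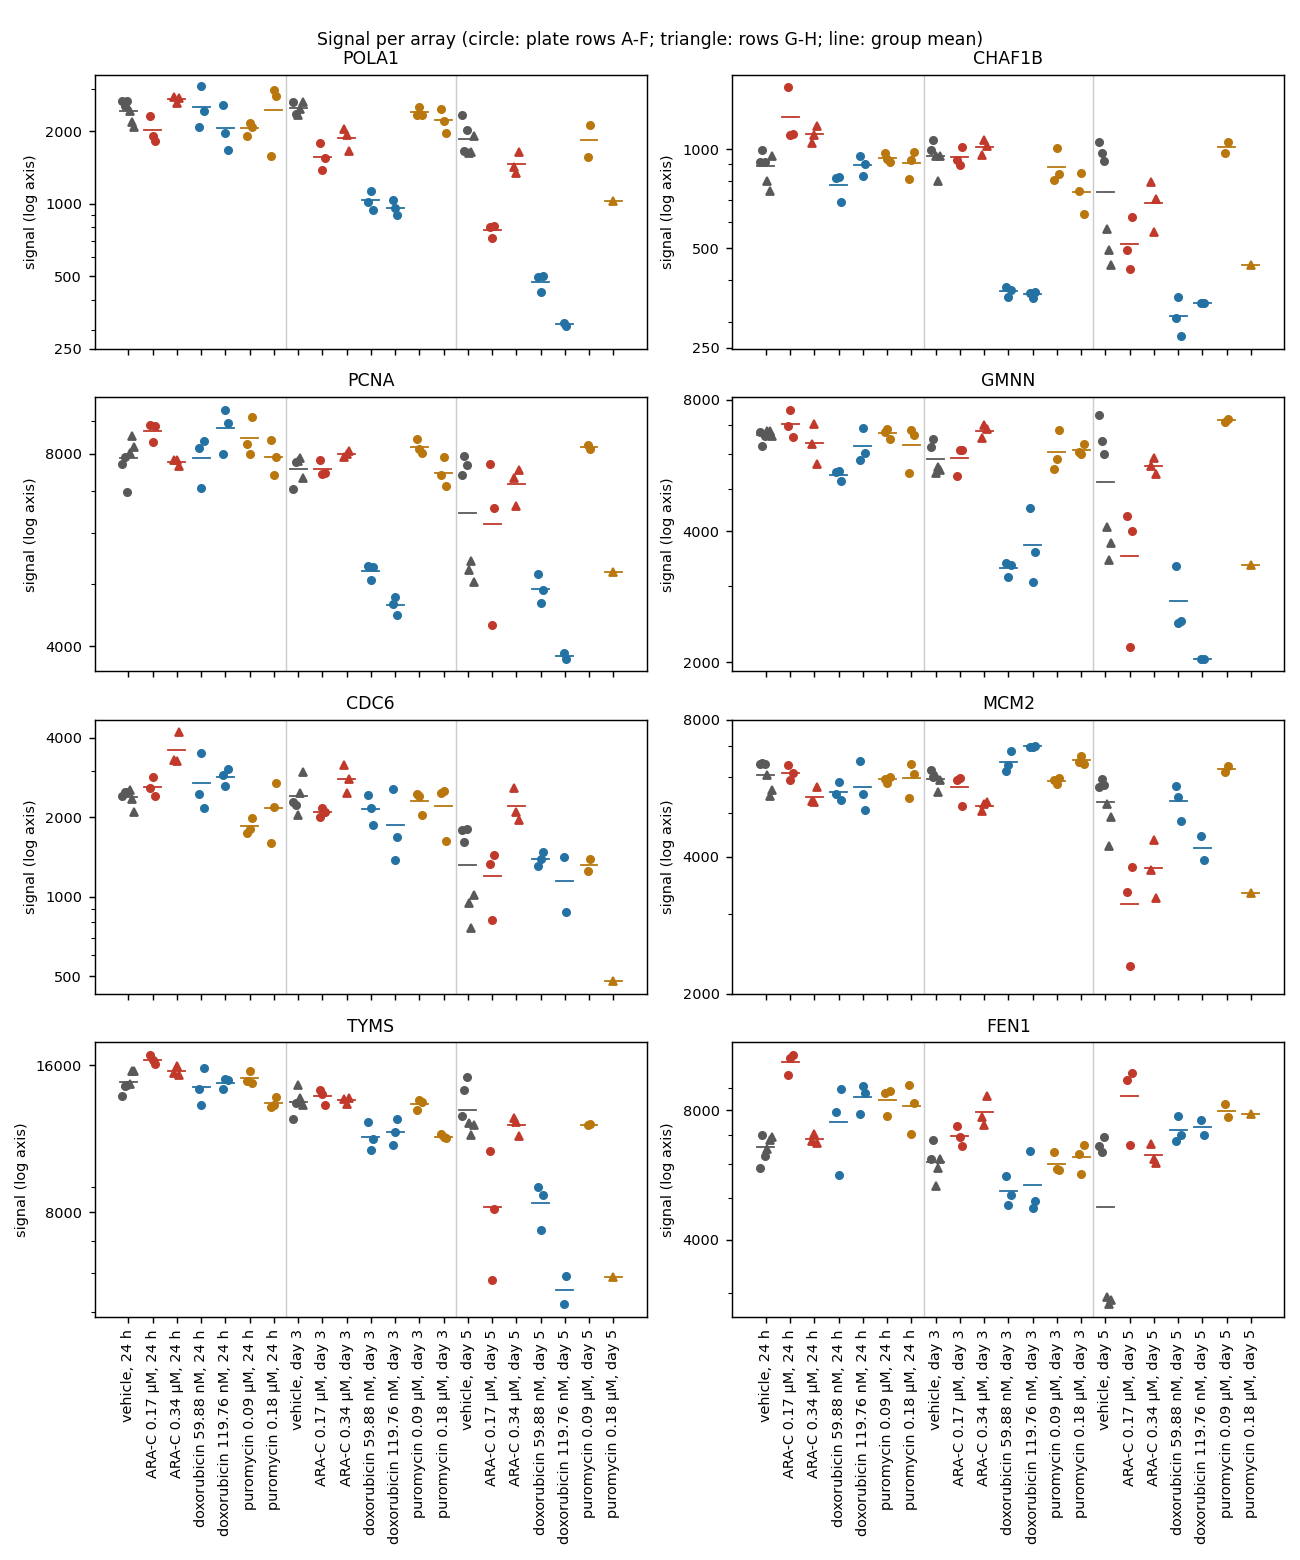
Signals of POLA1, CHAF1B, PCNA, GMNN, CDC6, MCM2, TYMS and FEN1 on every array, by group and time, on a log axis. Circles are arrays of plate rows A to F, triangles those of rows G and H, and lines are group means. At 3 days the doxorubicin arrays of POLA1, CHAF1B, PCNA and GMNN lie below all vehicle arrays, and at 5 days the vehicle arrays of FEN1, GMNN, PCNA and CDC6 split by plate rows.

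Most of the falls at 3 days were also called when the arrays were treated in other ways. With quantile normalization 23 members were lower and 1 higher at 59.88 nM, with vehicle arrays of the same plate rows 19 and none, with both 21 and 1, and with the 3′ to 5′ ratio of ACTB as a covariate 18 and 1. The ratio of 3′ to 5′ probe sets of ACTB rises as RNA is degraded. Under all 4 of these settings 17 of the 20 members remained called, POLA1, POLA2, PRIM1, POLE2, POLD2, POLD3, CHAF1B, PCNA, RFC4, RFC5, RPA3, GINS1, GINS2, CDC7, GMNN, TIPIN and DUT. At 119.76 nM 15 of 17 remained. The shares of all probe sets given further above are for the fit as reported, not for these settings. The log2 ratio of ACTB was 0.69 to 1.61 and 0.58 to 1.17 on the 2 sets of doxorubicin arrays and 0.29 to 0.81 on the vehicle arrays. Without the 40% of probe sets of lowest mean signal, the background was 20% of the 13329 left called lower at 59.88 nM and 19.6% at 119.76 nM. By promoter, 12 of the 21 members with an E2F word fell at 59.88 nM, 6 of the 17 with a window and no word, and 2 of the 5 without a window. At 119.76 nM these counts were 11, 4 and 2. The keratin KRT8 rose in the same arrays by 1.48 and 1.77, and the summed signal of the 8 epithelial markers was 25241 to 27031 and 23621 to 28153 under doxorubicin against 12209 to 14031 in vehicle, its part in the members' result not having been tested.

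Other genes of replication moved in the same direction, and genes of mitosis did not. Of 34 further replication genes 29 had a probe set, and at 3 days 10 fell and none rose at 59.88 nM, and 9 fell and none rose at 119.76 nM, with medians of -0.28 and -0.26. They included ORC2, a subunit of the origin recognition complex, at -1.57 and -0.97, PRIM2, the large subunit of primase, at -0.84 and -1.46, and RRM1, a subunit of ribonucleotide reductase, at -0.50 and -0.71. Of 24 genes of mitosis, none fell and 9 rose at 59.88 nM, with a median of 0.20, and none fell and 10 rose at 119.76 nM, with a median of 0.24. At an unadjusted p under 0.05, 1 and 0 mitosis genes were lower. TOP2A, the topoisomerase that doxorubicin poisons, rose by 0.75 and 0.86, AURKA, a kinase of the spindle poles, by 0.77 and 0.70, and KIF20A, a motor of cytokinesis, by 0.73 and 0.67. Under quantile normalization 13 and 11 mitosis genes rose and none fell.

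**Figure D3:**
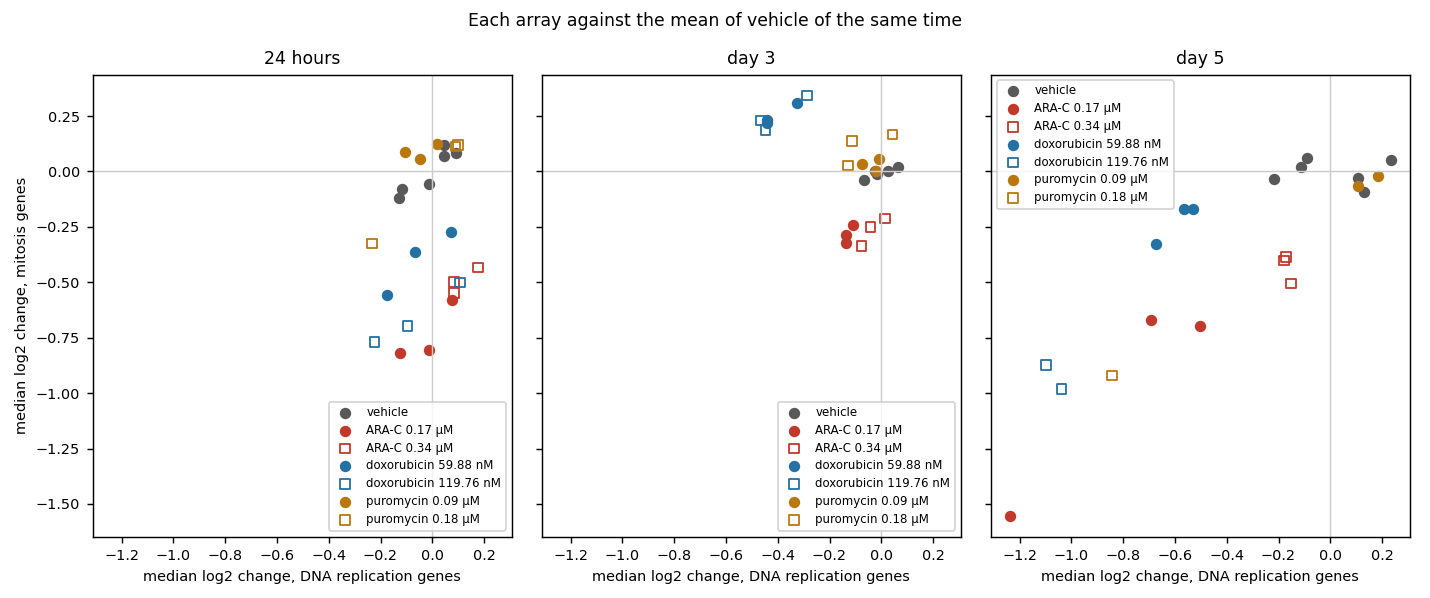
Each point is an array, placed by the median log2 change of the 43 replication genes (horizontal) and of 24 mitosis genes (vertical) against the vehicle mean of its time, in panels for 24 hours, 3 days and 5 days. At 3 days the 6 doxorubicin arrays lie at -0.46 to -0.29 for replication and 0.19 to 0.34 for mitosis. At 24 hours the arrays of cytarabine at 0.17 µM lie at -0.82 to -0.58 for mitosis.

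At 24 hours doxorubicin had 2 and 3 calls among the members, and more at the higher dose under other settings. At 59.88 nM, 2 fell and none rose (unadjusted 5 and 1), against 2.75% of all probe sets called lower and 2.52% higher. POLD2 had vehicle signals of 1890 to 2242, with a median of 2071, and doxorubicin signals of 1627, 1783 and 1394. MCM7 had vehicle signals of 4782 to 5862, median 5230, and doxorubicin signals of 4301, 4476 and 3579. All 3 doxorubicin arrays lay below every vehicle array in both genes. POLD2 fell by 0.38 ± 0.11 (adjusted p = 0.0342) and MCM7 fell by 0.35 ± 0.11 (adjusted p = 0.0428). The count was 0 without vehicle replicate 1, 2 or 3 or doxorubicin replicate 1 or 3, and 1 without vehicle replicate 4. At 119.76 nM, 2 fell and 1 rose, against 7.72% of all probe sets lower and 6.59% higher. These were UNG (-0.75 ± 0.16, adjusted p = 0.00043), TIMELESS (-0.55 ± 0.14, adjusted p = 0.00518) and DUT (0.33 ± 0.08, adjusted p = 0.0032). The second probe set of TIMELESS, with a mean signal of 73.0, differed in sign, at 1.03. The count of 3 was 9 without doxorubicin replicate 1, 1 without replicate 2, and 7 or 6 without vehicle replicate 5 or 6. It was 10 with quantile normalization (6 lower, 4 higher), 10 with vehicle of the same plate rows (8 lower, 2 higher) and 14 with both (7 lower, 7 higher). Genes of mitosis were lower at this time, 11 of 24 at 59.88 nM and 16 of 24 at 119.76 nM. At 3 days, as given above, none of them was called lower and some were higher.

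Cytarabine at its EC50 had few calls among the replication genes at 24 hours. At 0.17 µM, 2 of 43 fell and 5 rose, with a median of -0.04 and 23 members below 0, against 8.97% of all probe sets called lower and 5.42% higher. FEN1 had the largest rise, from vehicle signals of 5863 to 6990, median 6652, to 9685, 10575 and 10754, and TK1 the next, from 807 to 1116, median 954, to 1245, 1416 and 1686. FEN1 rose by 0.66 ± 0.17 (adjusted p = 0.00639), although its second probe set read -0.20, and TK1 by 0.61 ± 0.19 (adjusted p = 0.0234). No cytarabine array of either gene overlapped with vehicle. CHAF1B rose by 0.48, POLD3 by 0.43 and DUT by 0.36, and the second probe set of DUT read -0.04. POLE fell from 854 to 1296, median 1215, to 710, 770 and 767 (-0.59 ± 0.18, adjusted p = 0.0216), and MCM7 from 4782 to 5862, median 5230, to 4526, 3924 and 4123 (-0.32 ± 0.11, adjusted p = 0.0359). TYMS read 16795, 16390 and 16073, above the vehicle range of 13817 to 15602. Only DUT of the 7 remained called under all 4 settings above, and 2 or 3 members were called without cytarabine replicate 2 or 3. With quantile normalization the counts were 1 lower and 10 higher, and with vehicle of the same plate rows 6 lower and 4 higher, so that the balance of the directions depended on the setting. In the same arrays 18 of 24 mitosis genes fell and 1 rose, with a median of -0.73, led by PLK1, a kinase of mitotic entry, at -1.66 and CENPA, the histone of the centromere, at -1.42.

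At 3 days the same dose of cytarabine had a smaller set of lower genes than doxorubicin. At 0.17 µM, 7 members fell and 2 rose, with a median of -0.11, against 7.92% of all probe sets called lower and 14.5% higher and a median of 0.28 over all probe sets. POLE2 read 1040, 1044 and 1025 against 1516 to 2077 in vehicle, and RPA3 2599, 2160 and 2346 against 3777 to 4770. Both were below every vehicle array, and POLE2 fell by 0.83 ± 0.19 (adjusted p = 0.000921) and RPA3 fell by 0.82 ± 0.13 (adjusted p = 5.26e-06). TIPIN fell by 0.76, POLA1 by 0.67, DBF4 by 0.55, RFC4 by 0.38 and DUT by 0.27. POLA1 read 1783, 1378 and 1543, between the vehicle arrays and those of doxorubicin. TK1 rose from 1171, 933, 691, 724 and 1016 to 1237, 1403 and 1535 (0.64 ± 0.20, adjusted p = 0.0159), and CHAF1A from 1755, 1316, 1196, 1040 and 1058 to 1429, 1933 and 1586 (0.39 ± 0.14, adjusted p = 0.0437). The cytarabine arrays of CHAF1A overlapped with vehicle, those of TK1 did not. PCNA read 7810, 7434 and 7457, GMNN 5349, 6134 and 6134, and MCM2 5909, 5972 and 5182, each overlapping with vehicle, as did CDC6 at 1999, 2166 and 2100 and TYMS at 14250, 13950 and 13294. POLA1, POLE2, RPA3 and TIPIN remained called under the 4 settings, and neither of the 2 that rose did. The low end of the third array was raised, with a 10th percentile of 34.5, and without it 4 members were called in place of 9. The summed epithelial markers read 18956 to 20144 in this group against 12209 to 14031 in vehicle, and their part in the members' result was not tested.

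Cytarabine and doxorubicin were compared directly at EC50, and at 3 days part of the members differed. The molar doses were not the same, each being the EC50 of its compound. Of the 43 members, 13 were higher under cytarabine and 1 lower, with a median of 0.36 and 35 members above 0, against 7.03% of all probe sets higher and 2.32% lower and a median of 0.24. CHAF1B was higher by 1.35 ± 0.19 (adjusted p = 8.76e-07), at 925, 894 and 1018 against 383, 356 and 374. CDT1 was higher by 1.22, PRIM1 by 0.93, GMNN by 0.84, TK1 by 0.67, POLA1 by 0.60, POLA2 by 0.60 and PCNA by 0.53. UNG was lower, at -0.59 ± 0.18 (adjusted p = 0.0273), at 2251, 2086 and 2119 against 3347, 3526 and 2865. Of the 13, 11 remained called under all 4 settings, as did UNG, and without the third cytarabine array 9 members in all were called. The mitosis genes differed the other way, with 14 of 24 lower under cytarabine, none higher, and a median of -0.68. At 24 hours 1 member was higher and none lower (unadjusted 8 and 1), against 2.43% of all probe sets higher and 3.07% lower. It was CHAF1B, at 1542, 1100 and 1108 under cytarabine, by 0.67 ± 0.19 (adjusted p = 0.0248), and it was not called without cytarabine replicate 1 or doxorubicin replicate 2 or 3.

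Cytarabine at 0.34 µM had a single call among the members at 24 hours and 7 at 3 days, counts that were higher under several other settings. At 24 hours 1 member rose and none fell (unadjusted 8 and 4), against 6.66% of all probe sets higher and 2.21% lower. It was ORC1, at 1737, 1637 and 1669 against 895 to 1335 in vehicle (0.61 ± 0.16, adjusted p = 0.007). The CDC6 signals of 3283, 3271 and 4198 were also above all vehicle arrays, which read 2091 to 2541. With quantile normalization 5 members were higher at 24 hours, and with vehicle of the same plate rows 6, none being lower in either. The low end of the second array was raised, with a 10th percentile of 22.1 and 0.941% of signals under 10, against 19.8% and 20.7% on the other arrays of the group. At 3 days 6 fell and 1 rose, against 8.05% lower and 9.95% higher. POLE2 fell by 0.63, RPA3 by 0.59, TIPIN by 0.54, POLD2 by 0.53, MCM7 by 0.49 and POLA1 by 0.41, and POLD3 rose by 0.47. With quantile normalization and vehicle of the same plate rows together, 8 were lower and 5 higher. The summed epithelial markers read 18147 to 19356 against 12209 to 14031 in vehicle, and their part was not tested. The comparisons at 3 days share their vehicle arrays. POLE2 had -0.83 and -0.63 at the 2 doses of cytarabine and -1.20 and -1.28 at those of doxorubicin, and TIPIN had -0.76 and -0.54 against -0.78 and -0.61. Both genes were below vehicle at every dose of the 2 compounds.

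Puromycin at its EC50, which acts on the ribosome, had more calls among the members at 24 hours than at 3 days. At 24 hours and 0.09 µM 8 members fell and 1 rose, with a median of -0.03, against 8.41% of all probe sets lower and 2.09% higher. CDT1 read 227, 248 and 225 against 289 to 580, median 480, in vehicle, and fell by 0.92 ± 0.26 (adjusted p = 0.0142). POLE fell by 0.62, POLD1 by 0.61, RFC2 by 0.57, MCM5 by 0.53, POLD2 by 0.47, POLA2 by 0.45 and MCM7 by 0.36. DUT rose from 7073 to 8329, median 7823, to 9613, 9031 and 9830 (0.30 ± 0.08, adjusted p = 0.0107), and its second probe set read -0.06. Only MCM5 of the 8 remained called under all 4 settings, and 1 or 2 members were called without puromycin replicate 1 or 3. At 3 days 1 fell and none rose (unadjusted 3 and 0), against 2.40% lower and 0.675% higher. It was POLD2, at 1253, 1489 and 1450 against 2134, 1906, 1658, 1735 and 1845 (-0.41 ± 0.12, adjusted p = 0.0341), and it was not called without any 1 of the puromycin arrays or vehicle replicate 1, 2 or 6. POLA1 read 2341, 2532 and 2332, PCNA 8433, 8129 and 8008, GMNN 5558, 5852 and 6821, and MCM2 5897, 5777 and 5958, the PCNA arrays being just above all vehicle arrays and the rest overlapping with them. At 0.18 µM, 1 fell and 1 rose at 24 hours, against 4.29% lower and 3.31% higher, and 2 fell and none rose at 3 days (unadjusted 10 and 4), against 7.13% lower and 4.32% higher. These were POLD2 and POLD3 at 24 hours and LIG1 (-0.61 ± 0.18, adjusted p = 0.0139) and POLD2 (-0.49 ± 0.12, adjusted p = 0.00179) at 3 days. Without puromycin replicate 2 or 3 none was called at 24 hours, and 1 was without vehicle replicate 1, 2, 3, 5 or 6. At 3 days 4 were called without vehicle replicate 1 or puromycin replicate 1.

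Cytarabine set directly against puromycin at EC50 had few calls among the members before 5 days. At 24 hours 4 members were higher under cytarabine and none lower (unadjusted 8 and 3), against 4.74% of all probe sets higher and 1.89% lower. They were TK1 (0.88 ± 0.22, adjusted p = 0.0072), POLA2 (0.72), POLD1 (0.71) and POLD2 (0.43), and 2 members were called without any 1 of the arrays compared, or 1 without puromycin replicate 1. At 3 days 3 were higher and 3 lower, against 13.9% higher and 4.79% lower and a median of 0.37 over all probe sets. TIPIN was lower (-0.80 ± 0.16, adjusted p = 0.000261), as were POLA1 (-0.62) and RPA3 (-0.60), and TK1 was higher by 0.79, POLD1 by 0.68 and POLD2 by 0.37. All 6 remained called under the 4 settings, and 3 were called without the third cytarabine array.

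At 5 days most replication genes were lower under cytarabine at 0.17 µM and under both doses of doxorubicin, on arrays that also differed from vehicle in signal and RNA integrity. Cytarabine at 0.17 µM had 37 members lower and 1 higher with a median of -0.88, against 38.0% of all probe sets lower and 10.3% higher and a median of -0.28. Doxorubicin had 32 lower and 2 higher at 59.88 nM, with a median of -0.60, against 29.2% lower and 12.1% higher. At 119.76 nM, with 2 arrays, 36 were lower and 1 higher with a median of -1.13, against 37.9% lower and 15.8% higher. The log2 ratio of 3′ to 5′ ACTB was 2.88 to 5.07 under cytarabine at 0.17 µM, 2.13 to 2.93 and 4.10 to 5.00 under the 2 doses of doxorubicin, and 1.92 to 2.08 or 0.53 to 0.66 on vehicle arrays of plate rows A to F or G and H. The 90th percentile of signal was 1261 to 1989, 2099 to 2296 and 1533 to 1571 in the 3 treated groups, against 2435 to 3046 on all arrays of the earlier times. With quantile normalization, the medians of the members were -0.13, -0.25 and -0.21 in the 3 comparisons, with 16, 22 and 19 members lower and 8, 7 and 9 higher. The shares of all probe sets above are for the fit as reported, not for quantile normalization. Among probe sets that were not dim, 61.9%, 47.6% and 61.7% were lower in the 3 comparisons. The summed signal of the 7 Ewing sarcoma markers was 23476 to 35384, 33434 to 36529 and 19243 to 21814 in the 3 groups, below the 42570 to 59410 of vehicle. The summed signal of the 8 epithelial markers was 17030 to 17681, 30283 to 31414 and 25788 to 29035, above the 10642 to 12144 of vehicle. The part of RNA integrity and of these markers in the members' falls was not tested.

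**Figure D4:**
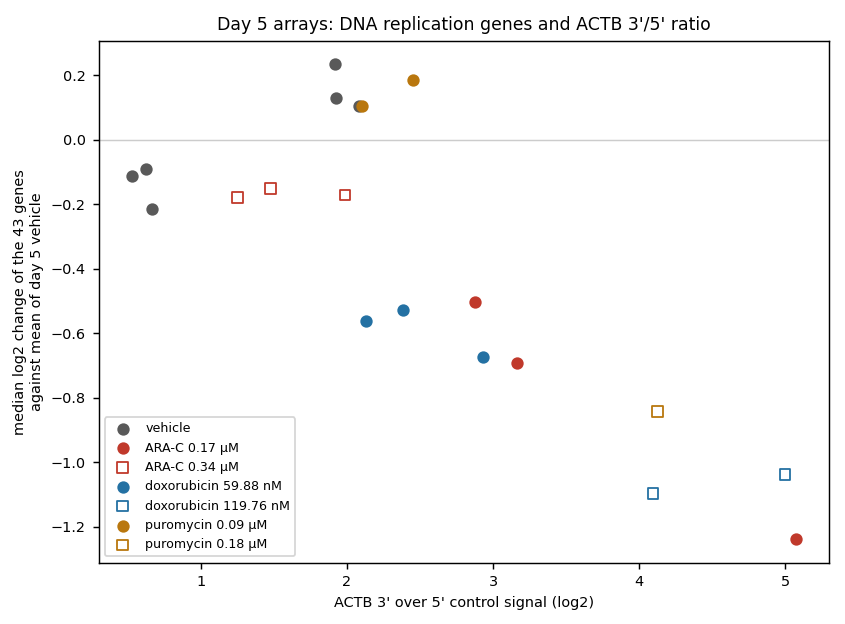
Arrays of 5 days, placed by the log2 ratio of the 3′ to the 5′ probe sets of ACTB (horizontal) and by the median log2 change of the 43 replication genes (vertical). The arrays of cytarabine at 0.17 µM and doxorubicin at 119.76 nM have ratios of 2.88 to 5.07 and medians of -1.24 to -0.50. Doxorubicin at 59.88 nM, with ratios of 2.13 to 2.93, has -0.67 to -0.53, while puromycin at 0.09 µM, with ratios of 2.10 to 2.45, has 0.11 to 0.18. These medians are against all vehicle arrays of 5 days. Against those of plate rows A to F alone, doxorubicin at 59.88 nM has -0.71 to -0.68 and puromycin at 0.09 µM -0.005 to 0.016.

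RPA3 and RFC1, the large subunit of the clamp loader, led the falls under cytarabine at 0.17 µM. RPA3 read 4458 to 4669, median 4644, in vehicle and 1586, 769 and 1385 under cytarabine (-1.95 ± 0.13, adjusted p = 1.35e-18). RFC1 read 958 to 2178, median 1327, in vehicle and 554, 267 and 459 under cytarabine (-1.76 ± 0.20). Its second probe set read 0.37, but was dim, with a mean signal of 17.7 against 1157 for the brightest. The second array was the lowest for RPA3 and for RFC1, and it also had the highest ACTB ratio of its group. POLE2 (-1.69), LIG1 (-1.44), TIMELESS (-1.36) and PRIM1 (-1.34) followed, and all 8 polymerase genes, all 6 activators of the helicase and 5 of 6 helicase subunits were lower. MCM2 read 3356, 2304 and 3803 against 4228 to 5941 in vehicle (-0.77 ± 0.10, adjusted p = 2.28e-09), and TYMS 10695, 5826 and 8132 against 11534 to 15106. CDC6 at 1336, 814 and 1441 and PCNA at 7707, 4322 and 6582 did not pass, and with quantile normalization their changes turned from -0.11 to 0.78 and from -0.07 to 0.31. The CDC6 arrays as reported were all below the vehicle arrays of their own rows, A to F. FEN1 was the member that rose, from 6596, 6388 and 6931 on the vehicle arrays of rows A to F and 2949, 2832 and 2902 on those of rows G and H to 9421, 6652 and 9779 (0.95 ± 0.17, adjusted p = 5.03e-06). Its second probe set fell by 0.83. MCM2, MCM6, DBF4, PRIM1, POLA1, POLE2, RFC1, RPA1, RPA3, LIG1, TIMELESS and TYMS remained lower under all 4 settings, 12 of the 37.

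Under doxorubicin at 59.88 nM for 5 days, POLE2 read 466.2, 350.5 and 390 against 1437 to 1967, median 1630, in vehicle, and POLA1 496, 430 and 499 against 1621 to 2336, median 1781. POLE2 fell by 2.04 ± 0.18 (adjusted p = 6.26e-14) and POLA1 fell by 1.96 ± 0.14 (adjusted p = 1.37e-17), both larger falls than at 3 days. At 119.76 nM POLA1 read 318.5 and 312 and fell by 2.55 ± 0.16 (adjusted p = 5.74e-20). UNG, at 2614, 1995 and 2069 against 1453 to 1712, median 1554, rose by 0.50 ± 0.16 at the lower dose (adjusted p = 0.00731), and FEN1, at 6800, 7739 and 7013, by 0.71 ± 0.17 (adjusted p = 0.000622). FEN1 lay above all vehicle arrays of rows G and H and overlapped with those of rows A to F, which read 6388 to 6931. PCNA at 5177, 4677 and 4897 fell by 0.37 and GMNN read 3321, 2467 and 2495, while MCM2 at 5716, 5423 and 4804 and CDC6 at 1314, 1397 and 1477 overlapped with vehicle. The CDC6 arrays lay above all vehicle arrays of rows G and H and below all those of their own rows, A to F. All 8 polymerase genes fell at both doses, and 2 and 4 of the 6 helicase subunits. At 59.88 nM 21 of the 32 members that fell remained called under all 4 settings, with UNG of the 2 that rose, and at 119.76 nM 16 of the 36 and not FEN1.

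**Figure D5:**
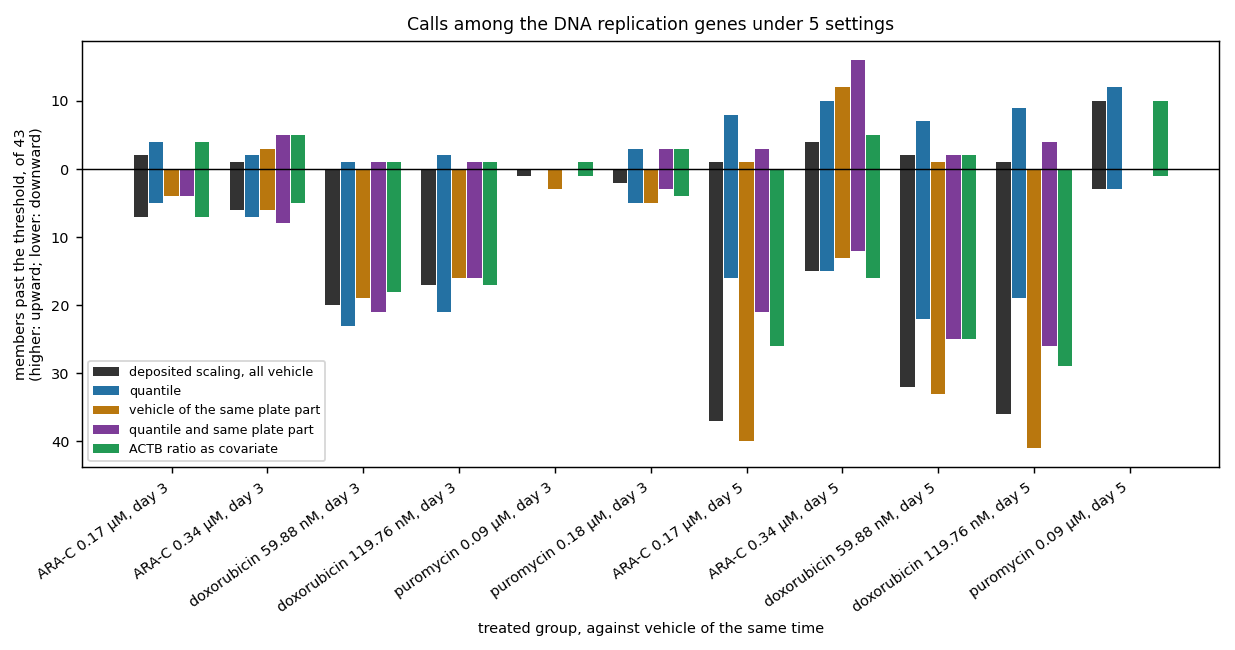
Number of the 43 replication genes called lower and higher at 3 and 5 days under 5 settings, the deposited scaling with all vehicle arrays, quantile normalization, vehicle arrays of the same plate rows, both together, and the ACTB ratio as a covariate. For doxorubicin at 59.88 nM and 3 days the lower bars stay between 18 and 23, and for cytarabine at 0.17 µM and 5 days they run from 16 to 40. The calls of puromycin at 0.09 µM and 5 days go to 0 with vehicle arrays of the same plate rows.

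Cytarabine at 0.34 µM had fewer lower members at 5 days than at 0.17 µM. It had 15 lower and 4 higher, with a median of -0.27, against 13.6% of all probe sets lower and 11.4% higher. Its arrays were in rows G and H of the plate, and those of the lower dose in rows A to F. Against vehicle of its own rows the median was -0.019, with 13 members lower and 12 higher, and by array it was -0.075 to -0.029. At 0.17 µM the array medians against vehicle of their own rows were -1.36 to -0.63. Each dose was on its own plate rows, and the doses were not tested against each other. The ACTB ratios at 0.34 µM, 1.25 to 1.99, were below those at 0.17 µM, and their part in the counts of the 2 doses was not tested. RPA3 at 2528, 1842 and 2376 fell by 1.05 ± 0.13 (adjusted p = 2.28e-09), and POLE2 at 902, 775 and 912 by 0.94 ± 0.18 (adjusted p = 5.12e-05). CDC6 rose by 0.82 ± 0.20 (adjusted p = 0.00107) to 2591, 2103 and 1955, from 1794, 1609 and 1805 on vehicle arrays of rows A to F and 947, 759 and 1020 on those of rows G and H, and its second probe set rose by 0.86. TK1 rose by 0.79, FEN1 by 0.52 and UNG by 0.43. CDC6, TK1 and FEN1 remained higher under all 4 settings, and 11 of the 15 remained lower.

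Puromycin at 0.09 µM for 5 days had 3 members lower and 10 higher with a median of 0.10, against 12.1% of all probe sets lower and 5.31% higher. FEN1 rose by 0.87 ± 0.20 (adjusted p = 0.00143), at 8256 and 7716, and TIPIN by 0.77 ± 0.16 (adjusted p = 0.000507), at 2381 and 2501. TIPIN on the vehicle arrays read 1929, 1974 and 1780 in rows A to F and 1087, 989 and 1183 in rows G and H. CDT1 read 283 and 234 against 441, 328 and 337 in rows A to F and 764, 687 and 859 in rows G and H, and fell by 1.04 ± 0.30 (adjusted p = 0.0104). POLD1 read 508 and 620 against 701, 758 and 756 in rows A to F and 1060, 1102 and 1091 in rows G and H. In all 4 genes the vehicle arrays split by plate rows, and the puromycin arrays were nearer to those of their own rows, A to F. Against those arrays alone limma called none of the 43 members (unadjusted 2 lower and 3 higher), and none of the 10 higher or 3 lower remained under all 4 settings. With the third array kept, 24 were called and CHAF1A went from 0.68 to -0.55. There were 2 or 3 calls without puromycin replicate 1 or 2, and 7 without vehicle replicate 4, 5 or 6. The single array of puromycin at 0.18 µM for 5 days had a median of -0.84 with 39 of 43 members below 0, a median of -0.30 over all probe sets and an ACTB ratio of 4.13. LIG1 was the lowest there, at -2.33 and a signal of 348, and FEN1 the highest at 0.84. Without a replicate it has no test.

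Between compounds at 5 days, cytarabine had 39 members lower than puromycin and none higher at EC50 (unadjusted also 39 and 0), with a median of -0.92, against 27.3% of all probe sets lower and 7.94% higher. RPA3 differed by -1.73, RFC1 by -1.58, MCM10 by -1.58 and CDC7 by -1.53, and 17 of the 39 remained called under all 4 settings. In a fit on these 5 arrays alone none passed (unadjusted 26 lower and 0 higher), and 258 of all probe sets did. Several of these members were called in opposite directions against vehicle. MCM10 read 819, 297 and 628 under cytarabine and 1645 and 1548 under puromycin, and CDC7 1373, 648 and 1046 against 2793 and 2832. CHAF1B read 494, 434 and 623 against 972 and 1053, and GMNN 4326, 2175 and 4002 against 7124 and 7229. Vehicle arrays of rows A to F read 918 to 1051 for CHAF1B and 6008 to 7374 for GMNN, and those of rows G and H 446 to 572 and 3436 to 4096. In CHAF1B and GMNN the puromycin arrays were at the level of the vehicle arrays of their own rows, while the cytarabine arrays, also in rows A to F, were all below them. Against doxorubicin at EC50, 11 members were lower under cytarabine and 4 higher, with a median of -0.20, against 18.5% of all probe sets lower and 4.02% higher. UNG was lower, at -1.39 ± 0.18 (adjusted p = 6.46e-08), at 1178, 579 and 881, and GINS1 was higher by 0.77, CHAF1B by 0.72, POLA1 by 0.71 and PRIM1 by 0.39. These 4 and UNG, MCM2 and MCM5 remained called under all 4 settings. POLA1, CHAF1B, PRIM1, GINS1 and UNG differed between the compounds in the same direction at 3 and 5 days.

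Among the 29 further replication genes at 5 days, 21 fell and 6 rose under cytarabine at 0.17 µM, 16 fell and 4 rose under doxorubicin at 59.88 nM, and 2 fell and 9 rose under puromycin at 0.09 µM. Over all probe sets the shares in these comparisons were 38.0% lower and 10.3% higher, 29.2% and 12.1%, and 12.1% and 5.31%. Against vehicle of the same plate rows, 2 of the 29 fell and 3 rose under puromycin. The mitosis genes at 5 days had 21 of 24 lower and none higher under cytarabine at 0.17 µM, 9 lower and 5 higher under doxorubicin at 59.88 nM, and 19 lower and 3 higher at 119.76 nM. The 2 probe sets of FEN1 disagreed at 5 days. Its second probe set read -1.63 under doxorubicin at 119.76 nM, where the brightest had risen by 0.74. For RFC5 and DUT the second probe sets fell under doxorubicin at 59.88 nM for 3 days as the brightest did, by 1.12 and 0.79.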

How the data were processed

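RNA of A673 cells was hybridised to 68 1-colour Affymetrix arrays, of which 67 were analysed. The deposited values are MAS5 signal intensities, scaled by the authors with 1 factor per array, and the MAS5 version was not given in the sources used here. The signals were floored at 10 and taken to log2, and a group-means model over 21 groups was fitted with limma 3.58.1 in R 4.3.3 (eBayes with an intensity trend, 46 residual degrees of freedom). The threshold was 0.05 on p-values adjusted (Benjamini-Hochberg) for the 22215 probe sets that are not controls. Arrays carry no read depth, so their number limits the precision. Plate rows were those in the study's supplement. The fit was tested on simulated data.

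Groups came from the labels. Each treated group was compared with vehicle of its time in 17 comparisons, and the compounds with each other at EC50 in 6. The members and gene lists were chosen with earlier results of these data known. Gene names came from the platform's annotation. Per-array signals are given for the 2 largest called falls and rises of each EC50 comparison, for PCNA, MCM2, CDC6, TYMS and GMNN, and for members called in opposite directions by 2 compounds. Other members with signals by array were chosen after their values were seen. The alternatives were quantile normalization, a floor of 32, a cap of 16000, leaving out the dimmest 40% of probe sets, a block for plate rows or for replicate numbers, vehicle taken from the treated group's own plate rows, no trend, only the groups compared, the left-out array kept, the second-brightest probe set and each array left out in turn. The ACTB ratio as a covariate, quantile normalization together with own-row vehicle, and leaving out 3 unusual arrays together were added after seeing the data. Figures were drawn in Python 3.11.15.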

Additional observations from a re-analysis of the deposited data

Results flagged for a closer look

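Some vehicle arrays stood far from the rest of their group in 5 of the 129 pairs of a member and a vehicle group, by the gap of the outermost array relative to the range of the group, and chance gives about 1 in 20. GMNN at 24 hours had its lowest signal, 6264, on replicate 2. RFC1 at 3 days had its highest, 1622, on replicate 1. RFC2, TIPIN and UNG at 3 days had their highest signals, 2435, 2896 and 2719, on replicate 6. The change of DUT had opposite directions at different times, with all arrays of a treated group above or all below every vehicle array of that time. Under cytarabine at 0.17 µM it was 0.36 at 24 hours, -0.27 at 3 days and -0.30 at 5 days, and under doxorubicin at 119.76 nM it was 0.33 at 24 hours and -0.40 at 3 days. The second probe set of DUT did not rise under this dose of cytarabine at 24 hours. The difference between times was not tested. On replicate 3 of puromycin at 0.09 µM for 5 days, which was left out, HBB read 30546.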

How the results depend on the processing

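Counts are of the 43 members past the threshold, as reported and then under the setting. Shares over all probe sets are for the fit as reported unless a setting is named. A cap of 16000 moved no count by over 1.5 times. Plate rows, RNA integrity at 5 days and the small groups limit these results. Signal at the low end limits few, since all members were read from bright probe sets, but some second probe sets were dim.

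Quantile normalization gave, for cytarabine at 0.17 µM, 11 in place of 7 at 24 hours and 24 in place of 38 at 5 days, and for 0.34 µM at 24 hours 5 in place of 1. For doxorubicin at 24 hours it gave 1 in place of 2 at 59.88 nM and 10 in place of 3 at 119.76 nM. For puromycin at 3 days it gave 0 in place of 1 (0.09 µM) and 8 in place of 2 (0.18 µM). Cytarabine against doxorubicin had 5 in place of 1 at 24 hours and 22 in place of 14 at 3 days, and against puromycin at 5 days 18 in place of 39. At 5 days CDC6 turned from -0.11 to 0.78 under cytarabine at 0.17 µM and from -0.17 to 0.84 under doxorubicin at 119.76 nM, MCM2 from -0.33 to 0.20 under the latter, and PCNA from -0.07 to 0.31 under cytarabine and from -0.44 to 0.021 in cytarabine against puromycin. With vehicle of the same plate rows as well, the counts were, for cytarabine at 0.17 µM, 15 at 24 hours, 4 at 3 days and 24 at 5 days, for 0.34 µM 6 and 13 at 24 hours and 3 days, for doxorubicin at 119.76 nM at 24 hours 14, for puromycin at 0.09 µM 0 at 3 and at 5 days, for 0.18 µM 6 and 6 at 24 hours and 3 days, for cytarabine against doxorubicin 13 and 28, and against puromycin 10, 10 and 22. CDC6 then read 0.51 in cytarabine against puromycin at 5 days (-0.19 as reported), MCM2 0.079 under doxorubicin at 119.76 nM and PCNA 0.021. Of all probe sets called under cytarabine at 0.17 µM and 5 days, whether lower or higher, 48.46% were higher with quantile normalization.

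Vehicle of the same plate rows gave 4 for cytarabine at 0.17 µM at 3 days, 6 for 0.34 µM at 24 hours, 4 and 10 for the doxorubicin doses at 24 hours, 3 and 0 for puromycin at 0.09 µM at 3 and 5 days, 4 and 5 for 0.18 µM at 24 hours and 3 days, and 4 and 7 for cytarabine against doxorubicin and puromycin at 24 hours. Plate rows as a block gave, at 24 hours, 4 for cytarabine at 0.17 µM and 4 at 0.34 µM, 4 and 8 for the doxorubicin doses and 2 for cytarabine against doxorubicin, with 2 and 6 for puromycin at 0.09 µM at 3 and 5 days and 7 for 0.18 µM at 3 days. The ACTB ratio as a covariate gave 4 for cytarabine at 0.34 µM, 5 for doxorubicin at 119.76 nM and 5 for puromycin at 0.18 µM at 24 hours, and 2 and 7 for the puromycin doses at 3 days.

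With the third puromycin array kept, the counts in order of time were 0, 1 and 10 for cytarabine at 0.34 µM, 0, 13 and 22 for doxorubicin at 59.88 nM, 0, 0 and 24 for puromycin at 0.09 µM, 0, 2 and 3 for cytarabine against doxorubicin and 1, 1 and 14 against puromycin. Cytarabine at 0.17 µM had 1 at 24 hours and 4 at 3 days. Doxorubicin at 119.76 nM had 9 at 3 days, and puromycin at 0.18 µM had 0 at 24 hours and at 3 days. At 5 days under puromycin CDC6 turned from 0.08 to -0.71, CHAF1A from 0.68 to -0.55, CHAF1B from 0.53 to -0.73, GMNN from 0.53 to -0.26, MCM2 from 0.25 to -0.78, PCNA from 0.37 to -0.030 and TIPIN from 0.77 to -0.45, and MCM2 in cytarabine against puromycin from -1.01 to 0.012.

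Fits on only the groups compared gave, for cytarabine, 13 at 0.17 µM and 24 hours and 6, 12 and 12 at 0.34 µM, for doxorubicin at 24 hours 1 and 7, for puromycin 2 at 0.09 µM and 5 days and 1 and 10 at 0.18 µM, for cytarabine against doxorubicin 0 at 24 hours and 1 at 5 days, and against puromycin 12 at 3 days and 0 at 5 days (unadjusted 26), where 5 arrays remained. The second-brightest probe set gave 3 for cytarabine at 0.34 µM, 1 and 5 for the doxorubicin doses at 24 hours, and 0 and 8 for puromycin at 0.09 µM at 3 and 5 days. On it DUT read -0.039 under cytarabine at 0.17 µM and -0.057 under puromycin at 0.09 µM, FEN1 -0.20 under cytarabine and TIMELESS 1.03 under doxorubicin at 119.76 nM, all at 24 hours, and RFC1 at 5 days 0.37 under cytarabine and 1.53 against puromycin. The second probe sets of RFC1 and TIMELESS were dim, with mean signals of 17.7 and 73.0. Without dim probe sets there were 3 for cytarabine against doxorubicin, 2 for cytarabine at 0.34 µM and 9 for doxorubicin at 119.76 nM at 24 hours, and 7 for puromycin at 0.18 µM at 3 days. A floor of 32 gave 2 for cytarabine against doxorubicin and no trend gave 1 for doxorubicin at 59.88 nM, both at 24 hours. Without the 3 unusual arrays there were 5 for cytarabine at 0.17 µM at 3 days and 2 for 0.34 µM at 24 hours.

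Same-numbered replicates of different groups did not deviate together, with a median correlation of 0.00337 over 136 pairs of groups (-0.498 to 0.386), so the numbers were not taken as pairs. The replicate number as a block gave 4 for cytarabine at 0.17 µM, 4 at 0.34 µM and 8 for doxorubicin at 119.76 nM at 24 hours, 2 and 7 for puromycin at 0.09 µM at 3 and 5 days, and 7 for 0.18 µM at 3 days. It moved no other count by over 1.5 times.

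With single arrays left out, the counts at 24 hours were 2 to 8 for cytarabine at 0.17 µM, 0 to 3 and 1 to 9 for the doxorubicin doses, 1 to 9 and 0 to 2 for the puromycin doses, 0 to 1 for cytarabine against doxorubicin and 1 to 2 against puromycin. At 3 days they were 4 to 9 for cytarabine at 0.17 µM, 0 to 1 and 2 to 4 for the puromycin doses, 9 to 16 for cytarabine against doxorubicin and 3 to 7 against puromycin. At 5 days they were 2 to 16 for puromycin at 0.09 µM. The cause of these shifts was not tested.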
